A study of Mus musculus with 12 samples.

Results

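The genes described here are the MAP kinase and phosphatase families as far as the arrays measured them. They are 56 mouse genes, chosen by symbol and not by value, out of 8708 genes with a name on the arrays. The symbols are those that begin with Mapk, Map2k, Map3k, Map4k or Rps6k, or that begin with Dusp, Ptpn or Ptpr and go on with the number or letter of a family member; Dusp1 and Ptpn13 were left out by that rule. The set holds 27 kinases, 24 phosphatases and 5 scaffold or interacting proteins, measured by 93 probes.

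RNA was compared on 12 cDNA arrays with 2 colour channels, 2 arrays per group, each against RNA of B6 mice. The groups were spleen T cells of NOD.H2h4 mice, an NOD strain with a different MHC haplotype; spleen T cells of B6.NODIdd1,5 mice, a congenic B6 strain with the NOD intervals Idd1 and Idd5; kidney cells of the same congenic strain; spleen T cells of NOD mice, which develop autoimmune diabetes; spleen T cells of B6 recipients of NOD marrow (NODtoB6); and spleen T cells of NOD recipients of B6 marrow (B6toNOD). The second channel was B6 spleen T cells, or B6 kidney cells for the kidney arrays. The labels give no age, sex or number of mice, no method of isolating T cells and no share of donor cells in the marrow recipients. Arrays of a group are not stated to come from separate mice, so the spread behind the p-values may be technical.

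MAP kinases work at the end of a relay. A MAP kinase kinase kinase (MAP3K), sometimes itself switched on by a MAP4K, phosphorylates a MAP kinase kinase (MAP2K), which phosphorylates the MAP kinase on a threonine and a tyrosine. In T cells the ERK, JNK and p38 branches carry signals from the antigen receptor, costimulatory receptors and stress to transcription factors. Dual-specificity phosphatases (Dusp) remove both phosphates, and tyrosine phosphatases of the non-receptor (Ptpn) and receptor-type (Ptpr) classes act on the receptors, the kinases and other proteins around them.

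A value below is the log2 ratio of the group's RNA to B6 RNA after each array's median was set to 0; 1 unit is a doubling. An estimate is the mean of a group's 2 arrays, or a difference of such means, with the standard error (SE) of a limma fit over all 12 arrays. A gene is said to rise or fall where the p adjusted over all features tested is below 0.05. Each fit was repeated with every array left out in turn, and a call is said to hold where it stayed past the threshold in all 12 of these fits. The ratios are relative to the median, which lay at -0.81 in NOD.H2h4 and -0.80 in B6toNOD before centring and between -0.45 and -0.16 in the other groups. For the marrow recipients the labels name no dyes, and it was assumed that their ratios run the same way as the rest.

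Each array had a value for 18837 to 20558 of 20736 probes, and 48 of the 56 genes had a value on all 12 arrays. The other 8 (Dusp3, Map2k5, Map4k1, Mapk10, Mapk8ip2, Mapkapk3, Ptpn1 and Ptpn12) lacked one in congenic T cells, congenic kidney or a marrow group and were tested only where every array of a group had a value. Markers of other cell types differed between the groups as well. Of 11 myeloid markers, 4 had a probe (S100a9, Ltf, Lcn2 and Lyz2), and their median ratio was 1.23 in NOD.H2h4, -0.82 in congenic T cells, 0.07 in congenic kidney, 0.85 in NOD, 2.76 in NODtoB6 and 4.65 in B6toNOD. All 4 rose in both marrow groups, over a range of 0.78 to 3.05 in NODtoB6 and 2.46 to 6.68 in B6toNOD. Of 8 erythroid markers, 4 had a probe, with medians of 0.71 in NOD.H2h4, -1.04 in congenic T cells, where all 4 fell, 0.09 in congenic kidney, 2.37 in NOD, 2.83 in NODtoB6 and 0.51 in B6toNOD. In NOD.H2h4 and B6toNOD 3 of these erythroid markers were tested. Of 10 T cell markers only Cd4 and Cd28 had a probe. Their median was -0.57 in NOD.H2h4, -1.23 in congenic kidney, 0.26 in NOD and 0.98 in NODtoB6, and the only one tested was at -1.39 in congenic T cells, where it fell, and at 0.19 in B6toNOD, where it did not pass. The medians of the B cell markers tested, 2 or 3 per group, lay between -1.16 in NOD.H2h4 and 0.22 in congenic T cells. Single B cell markers ran from -1.44 to 2.11 in NOD.H2h4 and from -2.04 to 1.37 in B6toNOD, with 1 higher and 1 lower in each. The medians of the kidney markers tested, also 2 or 3 per group, lay between -0.82 in B6toNOD and 0.88 in congenic kidney. A ratio to B6 does not show whether a marker is present. The part of these other cells in the values below was not tested, and in such bulk RNA fewer cells of a type and less RNA per cell cannot be told apart.

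Of the 48 genes that could be tested across all groups, 24 (50.0%) differed among the 6 groups by limma's moderated F test. Of all 12451 features tested 62.6% did, and of the named genes 56.9%. The 24 genes were 13 of 23 kinases, 9 of 21 phosphatases and 2 of 4 scaffold or interacting proteins. The 10 with the smallest p were the kinases Map3k7, Map2k1, Rps6ka6, Rps6kb2, Map3k3, Map3k14 and Mapkapk5, which act at different steps of the relay or beside it, and the phosphatases Ptpn6, Dusp10 and Ptpn18. The adjusted p ran from 2.4e-05 for Map3k7 to 0.0015 for Mapkapk5. Of these 10 genes only Map3k3 and Mapkapk5 had 2 probes, and each of the others rests on 1 probe. Mapkapk5 did not pass over the T cell groups alone (adjusted p = 0.064), and Ptpn18 did not pass in the values as deposited (adjusted p = 0.14). Against B6, 37 of the 56 genes were called in at least 1 group, 12 of them in both directions, and 19 in none. These are 66.1% called in at least 1 group, against 75.4% of all features, and 21.4% called in both directions, against 21.9%.

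**Figure D1:**
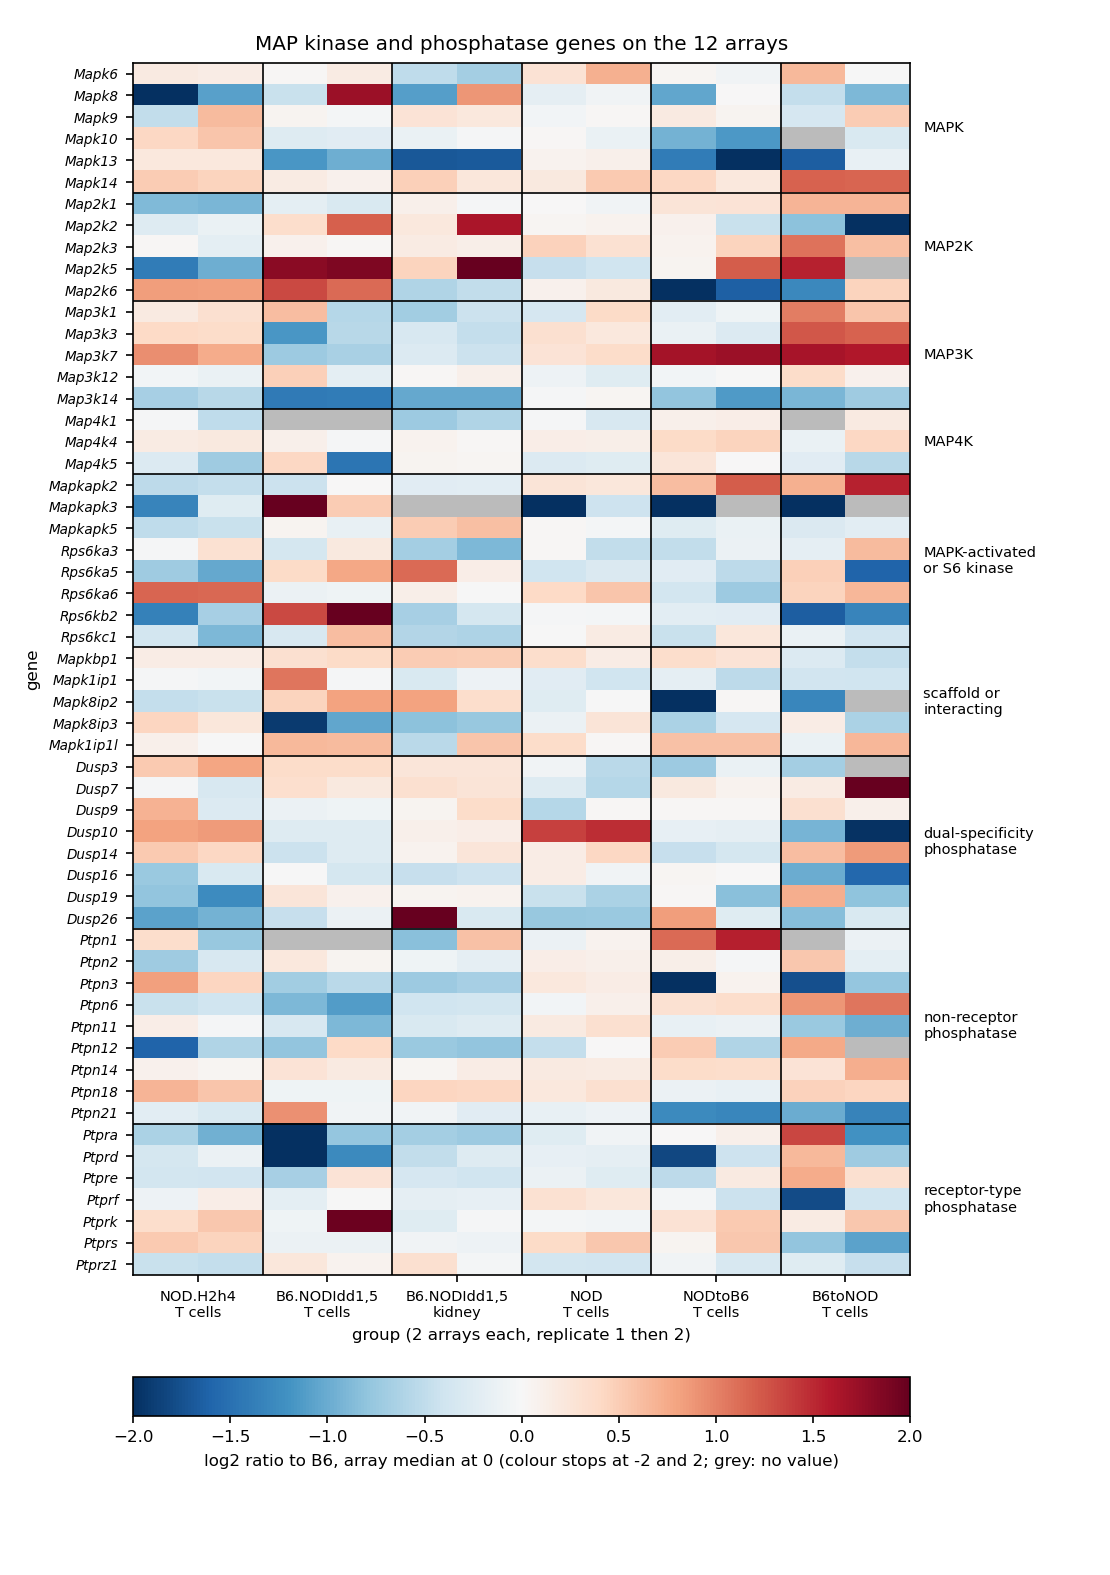
Log2 ratio to B6 of each of the 56 genes (rows, by family) on each of the 12 arrays (columns, by group), with each array's median at 0. Colour stops at -2 and 2 and grey marks no value; the row of Map3k7 is red in both marrow groups and blue in congenic T cells, and the row of Map3k14 is blue in every group but NOD.

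**Figure D2:**
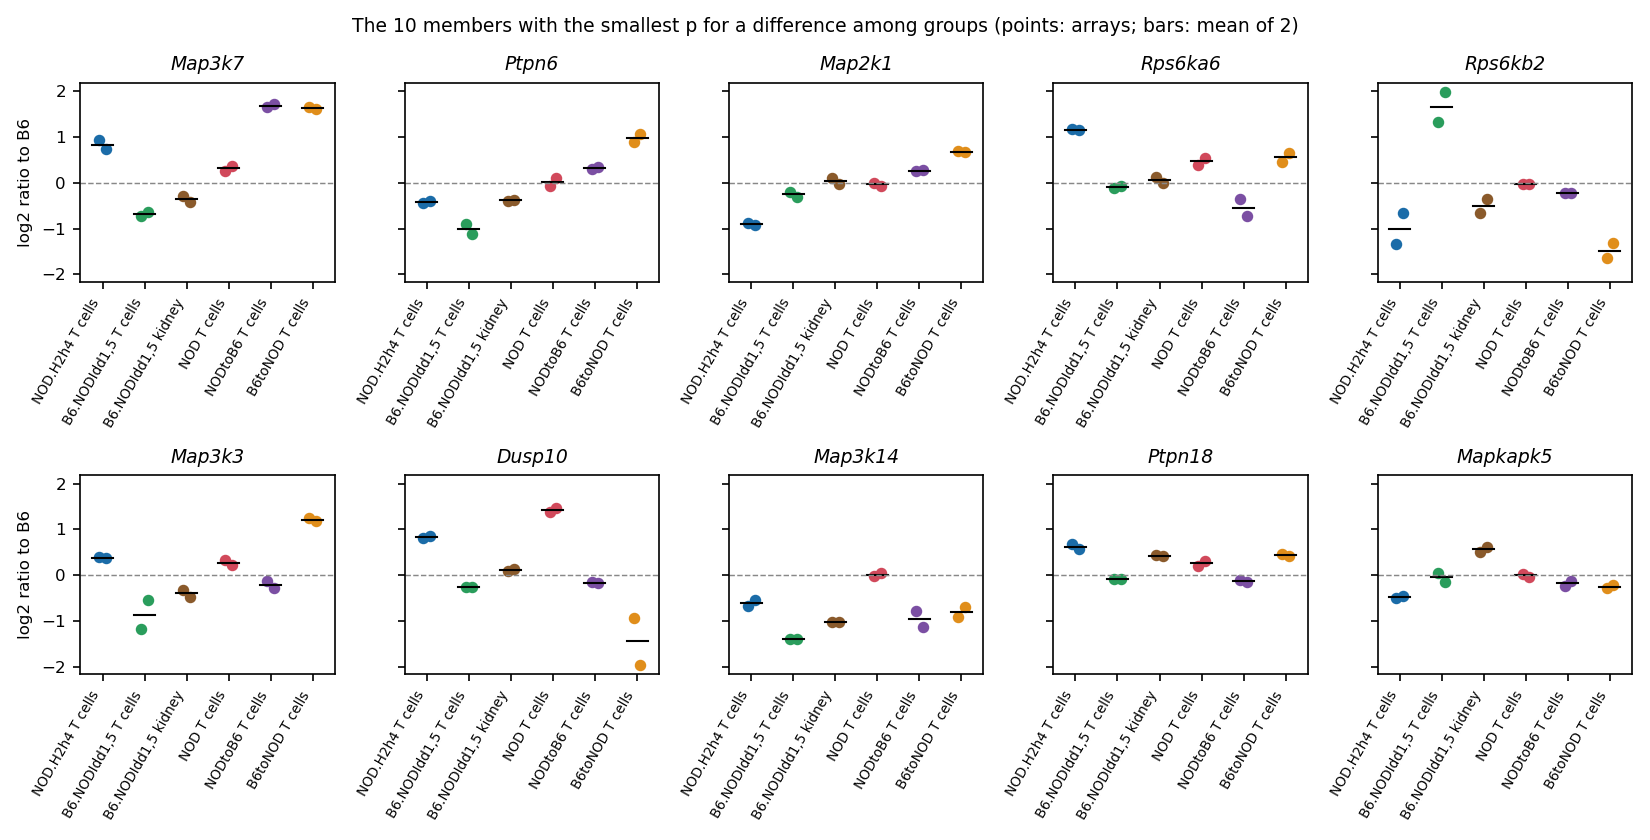
Log2 ratio to B6 on each array (points) and group mean (bars) for the 10 genes with the smallest F test p. The 2 arrays of a group lie close together for Map3k7 and Map2k1, and further apart for Rps6kb2 and for Dusp10 in B6toNOD (-0.93 and -1.97).

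Sequences of the start regions are shown for the gene with the smallest p, Map3k7, and for the 2 genes past the F test whose window held a cyclic AMP response element, a site of the stress- and MAP kinase-responsive CREB and ATF factors. Windows of 300 bases, mostly upstream of a RefSeq start (GRCm38.p6), are printed 5′ to 3′ on the gene's strand. 46 of the 56 genes had a window, 60 in all. The windows are chr4:31963857-31964156 (plus strand), chr5:121191348-121191647 (minus strand) and chr17:56476431-56476730 (minus strand). Capitals mark the response element TGACGTCA and the ETS motif CCGGAAG, both searched on both strands.
Map3k7: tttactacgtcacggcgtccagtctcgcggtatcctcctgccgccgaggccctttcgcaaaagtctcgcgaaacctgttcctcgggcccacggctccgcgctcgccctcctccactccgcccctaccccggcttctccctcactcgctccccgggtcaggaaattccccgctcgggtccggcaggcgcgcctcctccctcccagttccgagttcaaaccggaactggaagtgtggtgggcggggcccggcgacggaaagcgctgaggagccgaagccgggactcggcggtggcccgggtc
Ptpn11: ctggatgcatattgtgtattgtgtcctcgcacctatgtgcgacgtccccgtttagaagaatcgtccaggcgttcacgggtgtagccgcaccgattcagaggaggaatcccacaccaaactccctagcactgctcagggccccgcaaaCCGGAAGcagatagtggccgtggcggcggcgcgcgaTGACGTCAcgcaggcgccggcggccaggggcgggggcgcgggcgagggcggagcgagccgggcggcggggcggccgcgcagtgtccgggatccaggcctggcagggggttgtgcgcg
Ptprs: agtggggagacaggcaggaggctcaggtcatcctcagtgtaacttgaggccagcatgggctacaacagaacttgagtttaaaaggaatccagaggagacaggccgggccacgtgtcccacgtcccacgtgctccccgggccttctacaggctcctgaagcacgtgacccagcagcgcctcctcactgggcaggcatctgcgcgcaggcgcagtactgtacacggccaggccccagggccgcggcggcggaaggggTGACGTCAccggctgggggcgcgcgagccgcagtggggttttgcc
The response element stood in 3 of the 60 windows (Mapk10, Ptpn11 and Ptprs), against 1.79% of 32851 windows. The ETS motif stood in 6 windows, against 8.86% of all, and the AP-1 motif TGANTCA in 2 (Map2k6 and Ptpre), against 7.81% of all. A match is a stretch of letters and was not measured as a binding site. Ptprs has a second window, chr17:56462172-56462471, which held none of the 3 motifs. The 3 windows shown held no AP-1 motif, and that of Map3k7 held none of the 3 motifs.

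Among the MAP3K genes, Map3k7 had the widest pattern. It encodes TAK1, which links Toll-like, interleukin-1 and antigen receptors to JNK, p38 and NF-kappaB. Its ratios were 0.93 and 0.75 in NOD.H2h4, -0.73 and -0.64 in congenic T cells, -0.28 and -0.43 in congenic kidney, 0.27 and 0.37 in NOD, 1.66 and 1.72 in NODtoB6, and 1.65 and 1.60 in B6toNOD. Both marrow groups lay above all other arrays, both congenic groups lay below 0, and apart from the 2 marrow groups, which lay beside each other, every group was separate from the others. Map3k7 rose by 1.69 ± 0.077 in NODtoB6 (adjusted p = 1.7e-05), by 1.63 ± 0.077 in B6toNOD (adjusted p = 6.8e-06) and by 0.84 ± 0.077 in NOD.H2h4 (adjusted p = 0.00018), and fell by 0.69 ± 0.077 in congenic T cells (adjusted p = 0.00067; SE, n = 2 arrays each). These 4 calls held, but in the values as deposited NOD.H2h4 was at 0.04 (adjusted p = 0.80). The values in congenic kidney (-0.35, adjusted p = 0.010) and NOD (0.32, adjusted p = 0.037) passed too, and were lost without either array of the group (adjusted p up to 0.16 and 0.34). The marrow transfer arrays form a set of their own in the deposited table, with values given to 3 decimals, so that set and marrow transfer cannot be told apart. The median of the myeloid markers above was 2.76 in NODtoB6 and 4.65 in B6toNOD. It was -0.82 in congenic T cells, where 3 of the markers fell and 1 rose. In NOD.H2h4 it was 1.23 and in NOD 0.85. The part of such cells in the values of Map3k7 was not tested.

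Map3k14 encodes NIK, the kinase that starts the non-canonical NF-kappaB pathway. It read -0.67 and -0.55 in NOD.H2h4, -1.41 and -1.39 in congenic T cells, -1.03 and -1.02 in congenic kidney, -0.03 and 0.04 in NOD, -0.79 and -1.14 in NODtoB6, and -0.91 and -0.71 in B6toNOD. All arrays of every group but NOD were below 0, and the arrays of NOD lay on either side of it. Map3k14 fell by 1.40 ± 0.097 in congenic T cells (adjusted p = 8.3e-05), by 1.02 ± 0.097 in congenic kidney (adjusted p = 0.00039), by 0.97 ± 0.097 in NODtoB6 (adjusted p = 0.00076), by 0.81 ± 0.097 in B6toNOD (adjusted p = 0.00036) and by 0.61 ± 0.097 in NOD.H2h4 (adjusted p = 0.0021; SE, n = 2 each). All 5 calls held, and they were also past the threshold with the values as deposited.

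Map3k3 (MEKK3) feeds the p38 and ERK5 branches. In B6toNOD it read 1.24 and 1.19 and rose by 1.21 ± 0.135 (adjusted p = 0.00025), and in congenic T cells it read -1.17 and -0.55 and fell by 0.86 ± 0.135 (adjusted p = 0.0030; SE, n = 2 each). Both calls held; the first was at 0.45 in the values as deposited (adjusted p = 0.057). The B6toNOD value comes from 1 of the gene's 2 probes, since the other had no value on those arrays, while both probes fell in congenic T cells. Map3k1 (MEKK1), a kinase of the JNK branch, read 1.03 and 0.56 in B6toNOD (0.79 ± 0.281, adjusted p = 0.048), a call lost in 10 of the 12 fits with an array left out (adjusted p up to 0.31). Map3k12 was not called in any group.

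Of the 3 MAP4K genes, Map4k1 (HPK1) damps antigen receptor signalling in blood cells. It had no value in congenic T cells; in congenic kidney it read -0.73 and -0.60 and fell by 0.66 ± 0.142 (adjusted p = 0.019, n = 2), a call lost without either kidney array (adjusted p up to 0.17). Map4k4 read 0.39 and 0.45 in NODtoB6 (0.42 ± 0.12, adjusted p = 0.039), lost in 10 of 12 such fits. Map4k5 was not called in any group, and its 3 probes read 1.04, -2.16 and no value on B6toNOD replicate 2.

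Of the 5 MAP2K genes, 4 could be tested across all groups and Map2k1, Map2k3 and Map2k6 passed the F test, the last 2 only in 3 and 4 of the 12 fits with an array left out. Map2k1 (MEK1), the activator of ERK, read -0.88 and -0.92 in NOD.H2h4, -0.19 and -0.31 in congenic T cells, 0.10 and -0.02 in congenic kidney, 0.00 and -0.06 in NOD, 0.26 and 0.28 in NODtoB6, and 0.68 and 0.68 in B6toNOD. NOD.H2h4 lay below all other arrays and B6toNOD above all. The fall of 0.90 ± 0.067 in NOD.H2h4 (adjusted p = 9.1e-05) held and was past the threshold under every alternative. The values in congenic T cells (-0.25, adjusted p = 0.026) and NODtoB6 (0.27, adjusted p = 0.024) were lost without either array of their group (adjusted p up to 0.21 and 0.12). The rise of 0.68 ± 0.067 in B6toNOD (adjusted p = 0.00013) held, but read -0.08 in the values as deposited (adjusted p = 0.61).

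Map2k2 (MEK2), the other ERK activator, read -0.83 and -2.48 in B6toNOD and fell by 1.65 ± 0.446 (adjusted p = 0.017, n = 2). A probe of this gene read -5.18 on B6toNOD replicate 2 where the other read 0.22, and without that array the call was lost (-0.83, adjusted p = 0.22). Map2k3 and Map2k6 both activate p38. Map2k3 read 1.09 and 0.60 in B6toNOD and rose by 0.85 ± 0.137 (adjusted p = 0.0016), a call that held but read 0.08 in the values as deposited (adjusted p = 0.73). Map2k6 read -5.08 and -1.63 in NODtoB6 and fell by 3.35 ± 0.715 (adjusted p = 0.014), lost without replicate 1 (-1.63, adjusted p = 0.070). It read 1.32 and 1.13 in congenic T cells and 0.84 and 0.82 in NOD.H2h4, which did not pass. Map2k5, the activator of ERK5, read 1.80 and 1.87 in congenic T cells and rose by 1.84 ± 0.466 (adjusted p = 0.028), lost without either array of that group or of NOD (adjusted p up to 0.14). The arrays of a group lay far apart for Map2k2 in B6toNOD and Map2k6 in NODtoB6, and close together for Map2k1 in every group.

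Of the 6 MAP kinases, Mapk14 (p38 alpha) read 0.51 and 0.44 in NOD.H2h4, 0.16 and 0.09 in congenic T cells, 0.48 and 0.22 in congenic kidney, 0.19 and 0.52 in NOD, 0.42 and 0.22 in NODtoB6, and 1.18 and 1.17 in B6toNOD. All 12 arrays were above 0, and those of B6toNOD were the highest. The rise of 1.18 ± 0.105 in B6toNOD (adjusted p = 8.2e-05) held. Those in NOD.H2h4 (0.48 ± 0.105, adjusted p = 0.0092) and congenic kidney (0.35 ± 0.105, adjusted p = 0.037) were lost without either array of the group (adjusted p up to 0.098 and 0.38), and read -0.32 and -0.11 in the values as deposited.

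Mapk10 (JNK3), best known from the nervous system, read -0.94 and -1.15 in NODtoB6 and fell by 1.05 ± 0.087 (adjusted p = 0.00068), a call that held. In NOD.H2h4 it read 0.42 and 0.55 and rose by 0.49 ± 0.087 (adjusted p = 0.0054), lost without replicate 2 (adjusted p = 0.076). Mapk8 (JNK1) and Mapk9 (JNK2), the forms found in T cells, were not called in any group. Mapk8 read -2.51 and -1.08 in NOD.H2h4, -0.45 and 1.70 in congenic T cells, -1.10 and 0.89 in congenic kidney, -0.17 and -0.07 in NOD, -1.03 and 0.01 in NODtoB6, and -0.47 and -0.89 in B6toNOD. In 3 of the groups its arrays lay on both sides of 0. Mapk9 read -0.49 and 0.63 in NOD.H2h4 and -0.34 and 0.51 in B6toNOD, and between -0.06 and 0.27 on the other arrays. Mapk6 (ERK3) fell in congenic kidney, at -0.50 and -0.67, and was lost without either kidney array (adjusted p up to 0.23).

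Mapk14 and Ptprs are on chromosome 17, the chromosome of Idd1, and did not fall in either congenic group. Their means in congenic T cells and kidney were 0.13 and 0.35 for Mapk14 and -0.12 and -0.09 for Ptprs. Mapk13 (p38 delta) is on the same chromosome, although whether it lies in the congenic interval was not established. It fell by 1.07 ± 0.333 in congenic T cells (arrays -1.17 and -0.97, adjusted p = 0.047), by 1.69 ± 0.333 in congenic kidney (-1.70 and -1.68, adjusted p = 0.0069) and by 1.87 ± 0.333 in NODtoB6 (-1.40 and -2.34, adjusted p = 0.0072). In each of these groups 1 probe carried the fall. That probe read -2.02 and -1.74 in congenic T cells, -3.33 and -3.27 in congenic kidney and -2.52 and -4.19 in NODtoB6. The other averaged -0.26 in congenic T cells, -0.08 in congenic kidney and -0.39 in NODtoB6 and did not pass (adjusted p = 0.71, 0.91 and 0.56). The call in congenic T cells was lost in 8 of the 12 fits (adjusted p up to 0.24), that in kidney without either kidney array (adjusted p up to 0.075) and that in NODtoB6 without replicate 2 (adjusted p = 0.083).

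The kinases at the output of the relay include the S6 kinases of the Rps6k families. Rps6kb2, a ribosomal S6 kinase of the mTOR pathway, read -1.34 and -0.67 in NOD.H2h4, 1.32 and 1.98 in congenic T cells, -0.67 and -0.35 in congenic kidney, -0.03 and -0.04 in NOD, -0.22 and -0.23 in NODtoB6, and -1.64 and -1.32 in B6toNOD. Congenic T cells were the only group above 0. Rps6kb2 rose by 1.65 ± 0.201 there (adjusted p = 0.00097) and fell by 1.48 ± 0.201 in B6toNOD (adjusted p = 0.00068), and both calls held. The fall of 1.01 ± 0.201 in NOD.H2h4 (adjusted p = 0.0061) was lost without replicate 1 (-0.67, adjusted p = 0.10).

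Rps6ka6 (RSK4), of a family activated by ERK, read 1.17 and 1.15 in NOD.H2h4, -0.11 and -0.08 in congenic T cells, 0.12 and 0.00 in congenic kidney, 0.40 and 0.55 in NOD, -0.36 and -0.73 in NODtoB6, and 0.45 and 0.66 in B6toNOD. NOD.H2h4 lay above all other arrays, and NOD and B6toNOD overlapped. The rise of 1.16 ± 0.104 in NOD.H2h4 (adjusted p = 0.00016) held, and that of 0.47 ± 0.104 in NOD (adjusted p = 0.027) was lost in 6 of 12 fits (adjusted p up to 0.29). The fall of 0.54 ± 0.104 in NODtoB6 (adjusted p = 0.0096) was lost without replicate 2 (adjusted p = 0.088). The rise of 0.56 ± 0.104 in B6toNOD (adjusted p = 0.0033) held, but read -0.21 in the values as deposited (adjusted p = 0.14). Rps6ka3 (RSK2) read -0.67 and -0.90 in congenic kidney (-0.79 ± 0.234, adjusted p = 0.037), lost in 4 of 12 fits (adjusted p up to 0.26).

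Mapkapk2 (MK2), which p38 activates and which acts on cytokine mRNAs, read 0.62 and 1.22 in NODtoB6 and 0.70 and 1.54 in B6toNOD. It rose by 0.92 ± 0.214 in NODtoB6 (adjusted p = 0.020), lost without replicate 2 (0.61, adjusted p = 0.20), and by 1.12 ± 0.214 in B6toNOD (adjusted p = 0.0037), which held but read 0.36 in the values as deposited (adjusted p = 0.18). A probe of this gene had no value in either congenic group and on B6toNOD replicate 2, so that the average rests on different probes on different arrays. Mapkapk5 (PRAK) read -0.51 and -0.45 in NOD.H2h4, 0.06 and -0.15 in congenic T cells, 0.51 and 0.61 in congenic kidney, 0.03 and -0.05 in NOD, -0.24 and -0.13 in NODtoB6 and -0.29 and -0.21 in B6toNOD. Kidney lay above all T cell arrays and NOD.H2h4 below all others. Mapkapk5 rose by 0.56 ± 0.078 in congenic kidney (adjusted p = 0.0016; 0.10 in the values as deposited, adjusted p = 0.56) and fell by 0.48 ± 0.078 in NOD.H2h4 (adjusted p = 0.0022), and both calls held. It also fell in B6toNOD (-0.25, adjusted p = 0.030), lost in 2 of 12 fits (adjusted p up to 0.15). Mapkapk3, Rps6ka5 and Rps6kc1 were not called in any group.

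Of the scaffold and interacting proteins, Mapk8ip3 (JIP3), a JNK scaffold whose gene is also on chromosome 17, read -1.91 and -1.04 in congenic T cells and fell by 1.47 ± 0.244 (adjusted p = 0.0038), a call that held. In congenic kidney it read -0.82 and -0.76 (-0.79 ± 0.244, adjusted p = 0.042), lost in 8 of 12 fits (adjusted p up to 0.24). Mapkbp1, a JNK-binding protein, read 0.33 and 0.39 in congenic T cells and rose by 0.36 ± 0.081 (adjusted p = 0.014), lost without either array of that group (adjusted p up to 0.10). In congenic kidney it read 0.51 and 0.49 and rose by 0.50 ± 0.081 (adjusted p = 0.0029), which held but read 0.04 in the values as deposited (adjusted p = 0.85). It also rose in NODtoB6 (0.31, adjusted p = 0.028), lost in 6 of 12 fits, and fell in B6toNOD (-0.38, adjusted p = 0.0064), lost without replicate 2 (-0.28, adjusted p = 0.060). Mapk1ip1, Mapk1ip1l and Mapk8ip2 were not called in any group.

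Dusp10, a phosphatase of JNK and p38 with its gene on chromosome 1, had the smallest F test p of the dual-specificity phosphatases. It read 0.81 and 0.86 in NOD.H2h4, -0.26 and -0.26 in congenic T cells, 0.09 and 0.13 in congenic kidney, 1.37 and 1.48 in NOD, -0.16 and -0.18 in NODtoB6, and -0.93 and -1.97 in B6toNOD. The NOD arrays were the highest and the B6toNOD arrays the lowest, with no overlap between any 2 groups. The fall of 1.45 ± 0.201 in B6toNOD (adjusted p = 0.00074) held. The rises in NOD.H2h4 (0.83 ± 0.201, adjusted p = 0.014) and NOD (1.42 ± 0.201, adjusted p = 0.0066) were lost without either array of the group (adjusted p up to 0.11 in each). In the values as deposited Dusp10 read 0.03 in NOD.H2h4 (adjusted p = 0.92) and 1.27 in NOD (adjusted p = 0.064).

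Dusp16, a JNK phosphatase, read -0.99 and -1.58 in B6toNOD and fell by 1.28 ± 0.165 (adjusted p = 0.00051), which held. A probe of Dusp16 had no value on B6toNOD replicate 1. In NOD.H2h4 it read -0.75 and -0.31 (-0.53 ± 0.165, adjusted p = 0.038), lost in 8 of 12 fits (adjusted p up to 0.38). In congenic T cells its probes moved in opposite directions, at 0.60 (adjusted p = 0.0094) and -0.97 (adjusted p = 0.0031). Dusp14, which acts on costimulatory signals in T cells, rose by 0.74 ± 0.102 in B6toNOD (arrays 0.62 and 0.85, adjusted p = 0.00075), which held but read -0.03 in the values as deposited (adjusted p = 0.85). It also rose in NOD.H2h4 (0.47, adjusted p = 0.0087) and fell in congenic T cells (-0.35, adjusted p = 0.039) and NODtoB6 (-0.41, adjusted p = 0.025), each lost without either array of the group (adjusted p up to 0.11, 0.28 and 0.15) and that in congenic T cells in 6 of 12 fits in all. Dusp3 read 0.52 and 0.79 in NOD.H2h4 and rose by 0.65 ± 0.171 (adjusted p = 0.024), lost without either array of that group (adjusted p up to 0.21). Dusp7, an ERK phosphatase, read 0.16 and 2.88 in B6toNOD (1.52 ± 0.512, adjusted p = 0.040), and without replicate 2 it was at 0.16 (adjusted p = 0.44). The averages of Dusp9, Dusp19 and Dusp26 were not called in any group, but single probes of each passed. A probe of Dusp9 was higher in NOD.H2h4 (0.36, adjusted p = 0.0093), congenic kidney (0.38, adjusted p = 0.0083), NOD (0.32, adjusted p = 0.04) and B6toNOD (0.3, adjusted p = 0.016). A probe of Dusp19 was lower in NOD.H2h4 (-1.35, adjusted p = 0.028). A probe of Dusp26 was lower in NOD.H2h4 (-1.86, adjusted p = 0.0042) and NOD (-1.09, adjusted p = 0.041), and the other in B6toNOD (-0.58, adjusted p = 0.018). The first of these Dusp26 probes read 6.87 on congenic kidney replicate 1 where the other read -0.33.

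Ptpn6 encodes an SH2-domain phosphatase that restrains antigen receptor signalling and is abundant in all blood cells. It read -0.44 and -0.40 in NOD.H2h4, -0.90 and -1.11 in congenic T cells, -0.39 and -0.37 in congenic kidney, -0.06 and 0.10 in NOD, 0.30 and 0.36 in NODtoB6, and 0.89 and 1.07 in B6toNOD. The congenic T cells were lowest, the marrow groups highest, and NOD at 0. Ptpn6 fell by 1.01 ± 0.083 in congenic T cells (adjusted p = 0.00018) and rose by 0.98 ± 0.083 in B6toNOD (adjusted p = 6.6e-05), and both calls held; in the values as deposited B6toNOD was at 0.22 (adjusted p = 0.11). The smaller values in NOD.H2h4 (-0.42, adjusted p = 0.0058), congenic kidney (-0.38, adjusted p = 0.011) and NODtoB6 (0.33, adjusted p = 0.026) were lost without either array of their group (adjusted p up to 0.071, 0.11 and 0.15), and the last also without either kidney array (adjusted p = 0.051). The median of the myeloid markers was 1.23 in NOD.H2h4, -0.82 in congenic T cells and 0.07 in congenic kidney. It was 0.85 in NOD, 2.76 in NODtoB6 and 4.65 in B6toNOD. In NOD.H2h4 3 of the 4 markers rose and 1 fell, and in congenic T cells 1 rose and 3 fell. The part of such cells in the values of Ptpn6 was not tested.

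Ptpn11, an SH2-domain phosphatase needed for Ras and ERK activation, read -0.74 and -0.98 in B6toNOD and fell by 0.86 ± 0.136 (adjusted p = 0.0015), which held. In congenic T cells it read -0.31 and -0.90 (-0.61 ± 0.136, adjusted p = 0.014), lost without replicate 2 (-0.31, adjusted p = 0.13). In both groups 1 of its 2 probes fell, by 1.44 in B6toNOD (adjusted p = 0.0013) and 1.41 in congenic T cells (adjusted p = 0.0030), and the other read -0.28 and 0.20 and did not pass. Ptpn2, which dampens JAK kinases and antigen receptor kinases, read -0.71 and -0.32 in NOD.H2h4 (-0.51 ± 0.17, adjusted p = 0.047), lost in 10 of 12 fits (adjusted p up to 0.40).

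Ptpn18, a phosphatase with its gene on chromosome 1, rose by 0.62 ± 0.065 in NOD.H2h4 (arrays 0.68 and 0.56, adjusted p = 0.00031), by 0.43 ± 0.065 in congenic kidney (0.43 and 0.42, adjusted p = 0.0024) and by 0.44 ± 0.065 in B6toNOD (0.46 and 0.42, adjusted p = 0.0010). These calls held, but the values as deposited were below 0 in all 3 groups. In NOD it read 0.21 and 0.31 (0.26 ± 0.065, adjusted p = 0.042), lost in 8 of 12 fits (adjusted p up to 0.38). Ptpn21 read -1.28 and -1.30 in NODtoB6 and -1.0 and -1.33 in B6toNOD, and fell by 1.29 ± 0.203 (adjusted p = 0.0046) and 1.17 ± 0.203 (adjusted p = 0.0024). Both calls held, but with the median over its 3 probes the values were -0.96 (adjusted p = 0.060) and -0.81 (adjusted p = 0.064). In B6toNOD neither of the 2 probes of Ptpn21 that could be tested passed on its own. Ptpn14 read 0.37 and 0.35 in NODtoB6 (0.36 ± 0.106, adjusted p = 0.042), lost in 10 of 12 fits, and neither of its 2 probes passed on its own there. In B6toNOD it read 0.27 and 0.73 and rose by 0.50 ± 0.106 (adjusted p = 0.0061), which held but read -0.26 in the values as deposited (adjusted p = 0.077). Ptpn1, Ptpn3 and Ptpn12 were not called in any group. Apart from Ptpn18, the genes on chromosome 1 (Dusp10, Map4k4, Mapkapk2, Ptpn14 and Rps6kc1) were not called in either congenic group.

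Among the receptor-type phosphatases, Ptprs, whose gene is on chromosome 17, read 0.53 and 0.44 in NOD.H2h4, -0.12 and -0.12 in congenic T cells, -0.07 and -0.11 in congenic kidney, 0.38 and 0.53 in NOD, 0.06 and 0.54 in NODtoB6, and -0.79 and -1.06 in B6toNOD. B6toNOD lay below all other arrays. The fall of 0.93 ± 0.122 there (adjusted p = 0.00058) held, and the rise of 0.48 in NOD.H2h4 (adjusted p = 0.017) was lost without either array of that group (adjusted p up to 0.15). Ptprd, a relative of Ptprs, read -1.99 and -1.28 in congenic T cells and fell by 1.63 ± 0.392 (adjusted p = 0.018) with both its probes past the threshold, lost without replicate 1 (-1.28, adjusted p = 0.17). Ptprz1, known from glia, has 7 probes, and in B6toNOD 4 of them fell and 3 rose, so that its average of -0.35 stands for none of them. Ptprf was called in B6toNOD, at -1.78 and -0.40, and lost without replicate 1 (-0.40, adjusted p = 0.082). Ptpra, Ptpre and Ptprk were not called in any group. The leucocyte phosphatases Ptprc and Ptprj, and Ptpn7 and Ptpn22, were not analysed here.

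**Figure D3:**
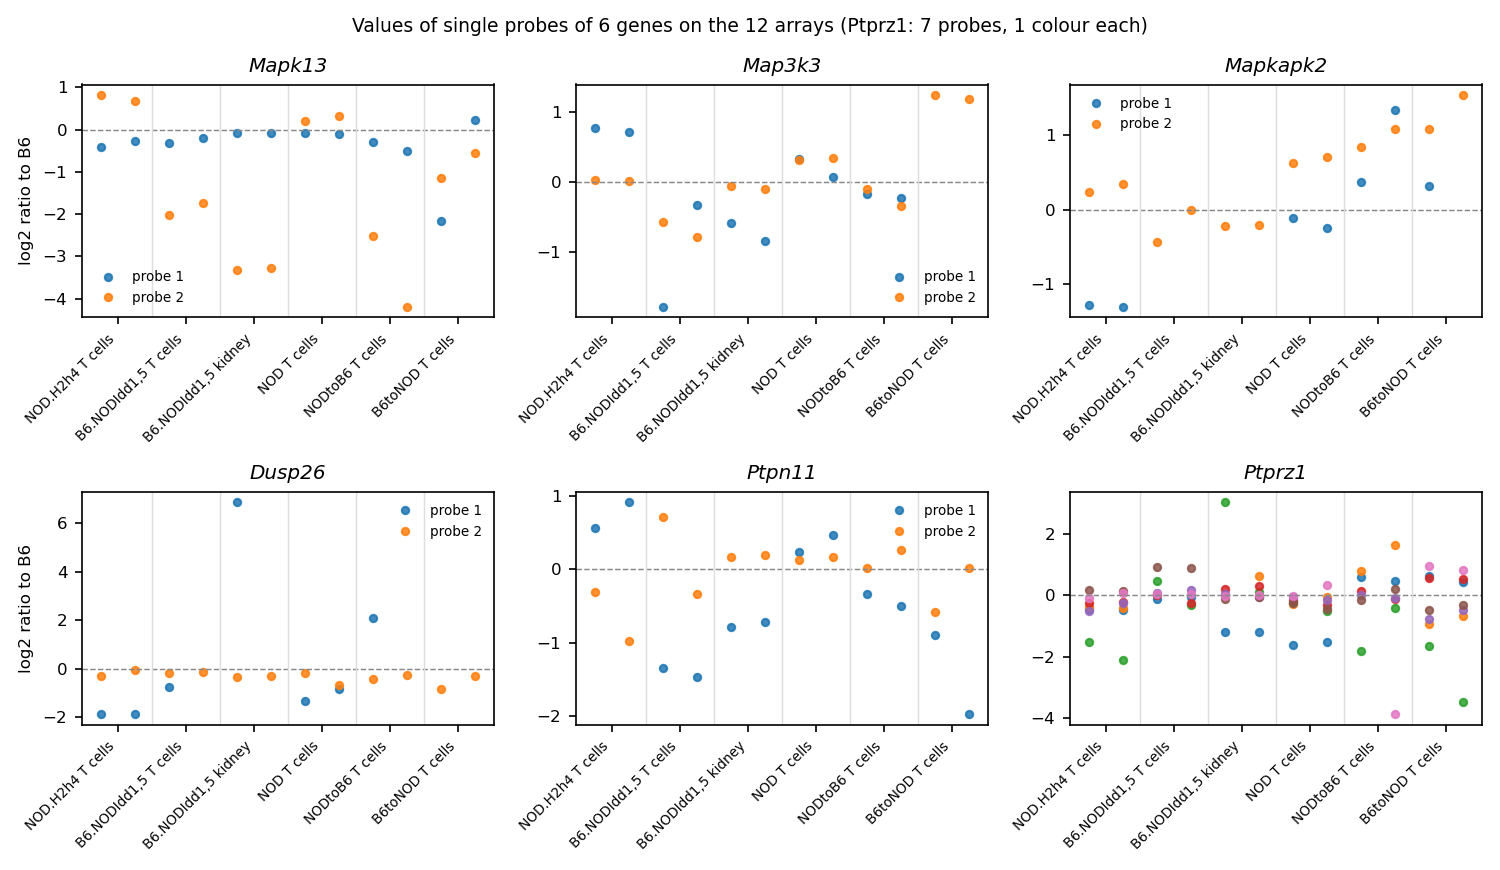
Log2 ratio to B6 of single probes (colours) on the 12 arrays, by group, for 6 genes with several probes. In Mapk13 1 probe lies between -4.19 and -1.74 in both congenic groups and NODtoB6 while the other stays nearer 0; in Dusp26 1 probe reaches 6.87 on a single kidney array.

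How far the values of a gene rest on 1 probe could be followed for the 27 genes with more than 1. Of the 85 calls against B6, 61 were of genes with 1 probe and 24 of genes with several. With each probe fitted on its own, a step chosen after the values were seen, 5 of the 24 had at least 2 probes past the threshold in the direction of the average, 17 had 1 and 2 had none. Probes of a gene differed by a median of 0.72 on an array, and in 15 of the 27 genes at least 1 pair of probes was negatively correlated over the arrays. Ptprd and Map3k3 in congenic T cells, Ptpn21 in NODtoB6 and Ptprz1 in NOD.H2h4 and B6toNOD were the calls with 2 or more probes past.

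The genes called were then counted by group. In NOD.H2h4, 17 of 56 genes were called (30.4%, against 39.5% of all features), 9 higher and 8 lower, where 24.1% of all features rose and 15.4% fell. In congenic T cells 13 of 54 were called (24.1%, against 30.3%), 3 higher and 10 lower, where 14.4% of all features rose and 15.9% fell. In congenic kidney 12 of 55 were called (21.8%, against 33.5%), 4 higher and 8 lower, where 22.4% of all features rose and 11.1% fell. Of the named genes alone, 1193 were higher and 1009 lower there. In the values as deposited, 431 of all features were higher and 4616 lower in that group. In NOD 4 of 56 were called (7.14%, against 12.2%), all higher, where 9.79% of all features rose. In NODtoB6 14 of 55 were called (25.5%, against 26.8%), 7 in each direction, where 13.8% of all features rose and 13.1% fell. In B6toNOD 25 of 48 were called (52.1%, against 51.4%), 13 higher and 12 lower, where 28.5% of all features rose and 22.9% fell. The share called in either direction was near or below that of all features in every group. All features include probes without a gene name, while the 56 genes are all named. Of the named genes alone, 33.9% were called in NOD.H2h4, 29.0% in congenic T cells and 26.1% in congenic kidney. Their share was 7.84% in NOD, 25.3% in NODtoB6 and 47.9% in B6toNOD.

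Kinases and phosphatases were called in both directions in most groups. In NOD.H2h4, 4 kinases rose and 4 fell of 27, and 5 phosphatases rose and 4 fell of 24. In congenic T cells, 2 kinases rose and 5 fell of 26, and 4 phosphatases fell of 23. In congenic kidney, 2 kinases rose and 6 fell of 26, and 1 phosphatase rose and 1 fell of 24. In NOD, 2 kinases and 2 phosphatases rose. In NODtoB6, 4 kinases rose and 5 fell of 26, and 2 phosphatases rose and 2 fell of 24. In B6toNOD, 8 kinases rose and 4 fell of 23, and 5 phosphatases rose and 7 fell of 21. The median kinase lay between -0.13 and 0.14 and the median phosphatase between -0.19 and -0.04 over the 6 groups, where the median of all features lay between -0.04 and 0.01. No test was made of kinases against phosphatases as classes.

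The split into higher and lower depends on the centring. With the values as deposited, 1 gene was higher and 35 lower in NOD.H2h4, 0 and 21 in congenic kidney, 1 and 7 in NODtoB6 and 2 and 24 in B6toNOD, and none was called in NOD, where 4 had an unadjusted p below 0.05. In congenic T cells the split was 2 and 10. With the arrays also scaled to the same spread, NOD had 12 higher and 2 lower.

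**Figure D4:**
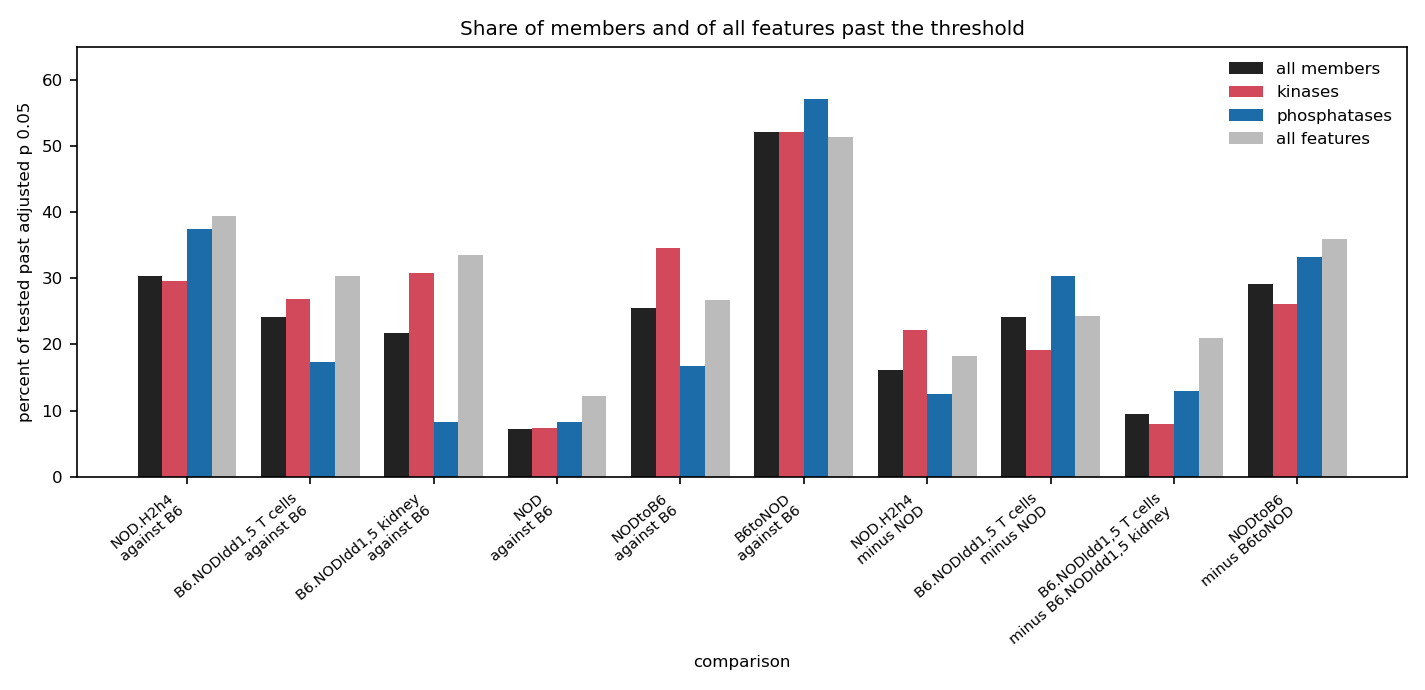
Percent of the tested genes past an adjusted p of 0.05 in each comparison, for all 56 genes, the kinases, the phosphatases and all features on the arrays. The bars of the 56 genes are near or below those of all features, from 7.14% in NOD to 52.1% in B6toNOD.

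The comparison of NOD.H2h4 with NOD addresses the MHC haplotype on a shared background. 9 of 56 genes were called (16.1%, against 18.2% of all features), 5 higher and 4 lower in NOD.H2h4, where the higher features numbered 1867 of 15570 and the lower ones 968 (6.22%). The ERK activator Map2k1, at -0.88 and -0.92 in NOD.H2h4 and 0.00 and -0.06 in NOD, was lower by 0.87 on the log2 scale (-0.87 ± 0.094, adjusted p = 0.0025), and this call held under all alternatives. Dusp3 (0.96), Rps6ka6 (0.69), Mapk10 (0.55), Map3k7 (0.52) and Ptpn18 (0.36) were higher and Map3k14 (-0.61), Mapkapk5 (-0.47) and Ptpn6 (-0.44) lower. Each of these 8 was lost in 4 to 8 of the 12 fits with an array left out, always including those without an array of these groups (adjusted p up to between 0.095 and 0.19). With the values as deposited the split was 0 higher and 17 lower, where 66 of all features were higher and 4227 lower. With scaled arrays it was 0 and 4, where 897 of all features were higher and 1105 lower. Neither of the 2 probes of Mapkapk5 passed on its own here.

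Congenic T cells were set against NOD T cells, which carry the same intervals on another background. 13 of 54 genes were called (24.1%, against 24.3%), 2 higher and 11 lower in congenic T cells, where 9.41% of all features were higher and 14.9% lower. Rps6kb2 was higher (1.69 ± 0.285, adjusted p = 0.0060), with 1.32 and 1.98 in congenic T cells and -0.03 and -0.04 in NOD. Dusp10 (-1.69 ± 0.283, adjusted p = 0.0059), Map3k14 (-1.40 ± 0.137, adjusted p = 0.00059), Map3k3 (-1.13 ± 0.191, adjusted p = 0.0060), Ptpn6 (-1.02 ± 0.118, adjusted p = 0.0012) and Map3k7 (-1.0 ± 0.109, adjusted p = 0.00093) were lower, and these 6 calls held. The arrays of the 2 groups did not overlap for any of the 6. Mapk8ip3 (-1.54, adjusted p = 0.018) was lost without congenic T cell replicate 1 (adjusted p = 0.066) or NOD replicate 2 (adjusted p = 0.11), and Ptpn11 (-0.86, adjusted p = 0.017) without either NOD array (adjusted p up to 0.10). Ptprz1 (0.54, adjusted p = 0.044) was lost in 6 of 12 fits (adjusted p up to 0.16). The other 4 called, all lower, were Dusp14 (-0.62, adjusted p = 0.020), Ptprs (-0.58, adjusted p = 0.049), Rps6ka6 (-0.57, adjusted p = 0.029) and Ptpn18 (-0.34, adjusted p = 0.034), lost in 2, 8, 8 and 8 of 12 fits. Markers of other cells differed in the same comparison: the median difference was -1.67 for the myeloid markers (3 of 4 lower) and -3.08 for the erythroid markers (4 of 4 lower), and the T cell marker tested was lower too (-1.98).

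Between the 2 tissues of the congenic strain, each relative to the same tissue of B6, 5 of 53 genes were called (9.43%, against 21.0%), 1 higher and 4 lower in T cells, where 6.9% of all features were higher and 14.1% lower. Rps6kb2 was higher in T cells by 2.16 ± 0.285 (adjusted p = 0.0021), with 1.32 and 1.98 in congenic T cells and -0.67 and -0.35 in congenic kidney, and the call held. Ptpn6 (-0.62), Mapkapk5 (-0.61), Ptpn18 (-0.51) and Dusp14 (-0.50) were lower in T cells, each lost without 1 kidney array or either (adjusted p up to 0.065, 0.064, 0.059 and 0.23), Dusp14 in 8 of the 12 fits in all. With the values as deposited 1 gene was higher and none lower (1.89%, against 9.73% of all features, 1034 higher and 376 lower). Neither of the 2 probes of Mapkapk5 passed on its own in this comparison. Of the named genes 16.8% were called between the tissues.

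The reciprocal marrow transfers were compared directly as NODtoB6 minus B6toNOD. 14 of 48 genes were called (29.2%, against 36.0%), 6 higher and 8 lower in NODtoB6, where 13.8% of all features were higher and 22.2% lower. Dusp16 (1.31 ± 0.233, adjusted p = 0.0041), Dusp10 (1.28 ± 0.283, adjusted p = 0.011), Rps6kb2 (1.26 ± 0.285, adjusted p = 0.012) and Ptprs (1.22 ± 0.173, adjusted p = 0.0014) were higher. The value of Dusp16 mixes probes, since 1 of its 2 had no value on B6toNOD replicate 1 and read -2.17 on replicate 2. Its other probe gave a difference of 0.64 (adjusted p = 0.025). Map3k3 (-1.42 ± 0.191, adjusted p = 0.0011), Dusp14 (-1.14 ± 0.144, adjusted p = 0.00086), Rps6ka6 (-1.10 ± 0.147, adjusted p = 0.0011), Mapk14 (-0.86 ± 0.148, adjusted p = 0.0036), Ptpn6 (-0.65 ± 0.118, adjusted p = 0.0044) and Map2k1 (-0.42 ± 0.094, adjusted p = 0.012) were lower. Mapkbp1 was higher as well (0.69 ± 0.114, adjusted p = 0.0029) and Ptpn18 lower (-0.57 ± 0.092, adjusted p = 0.0026). These 12 calls held, that of Rps6kb2 narrowly. In the values as deposited, however, Ptpn18 read -0.04 (adjusted p = 0.85) and Map2k1 0.11 (adjusted p = 0.64). Ptpn11 (0.72, adjusted p = 0.023) was lost in 3 of 12 fits and Map2k3 (-0.59, adjusted p = 0.050) in 10. Map3k7, high in both groups, did not pass here. With scaled arrays Rps6kb2, Mapk14, Ptpn6 and Map2k1 were lost as well (adjusted p = 0.11, 0.15, 0.20 and 0.37). With the values as deposited the split was 12 higher and 3 lower, where it was 6 and 8 after centring, so that not all genes named as lower passed without centring. Of all features 3915 were higher and 939 lower in the values as deposited.

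Genes next to the relay were counted from lists written with earlier results of these data known. Of the genes upstream of the MAP kinases (Ras and Raf proteins, adaptors and antigen receptor kinases), 22 were measured. Of those tested, 5 of 22 were called in NOD.H2h4, 7 of 19 in congenic T cells and 4 of 21 in congenic kidney. In NOD 2 of 22 were called, in NODtoB6 6 of 22 and in B6toNOD 15 of 21, 10 of these higher and 5 lower. Of all features 39.5% were called in NOD.H2h4, 30.3% in congenic T cells and 33.5% in congenic kidney. The share was 12.2% in NOD, 26.8% in NODtoB6 and 51.4% in B6toNOD. Of the downstream genes (Fos, Jun and other transcription factors and MAP kinase targets), 20 were measured. In B6toNOD 8 of 18 tested were called, 6 higher and 2 lower, and in each of the other groups 4 to 6 of 17 to 20. Of 17 other protein phosphatases, 11 of 16 were called in B6toNOD, 6 higher and 5 lower, and 11 of 16 in congenic T cells, 2 higher and 9 lower, with a median of -0.56 there against -0.01 for all features. The medians of the upstream and downstream lists lay between -0.25 and 0.07 in every group.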

How the data were processed

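Per the labels, Cy5 marked the strain RNA and Cy3 the B6 RNA on 8 arrays, with no dye swap named. The values the authors deposited are log2 ratios, not centred, and no label or header names the tools or filters behind them. Spot brightness is not analysed here. A value of 16.60964 (the log2 of 100000) was taken as missing; there were 146, none in a probe of these genes. Probes with 1 gene symbol (13033 of 20736) were averaged per gene, giving 16411 features with the unnamed probes, and each array was centred on its median. Group means were fitted with limma 3.58.1 (R 4.3.3; lmFit and eBayes, 6 residual and 1.36 prior degrees of freedom), with Benjamini-Hochberg adjustment over all features of a comparison. The fit was tested on simulated data. A ratio against B6 leaves out the spread of the B6 RNA, and a difference of groups cancels B6 only if both used the same B6 RNA. All 56 genes were found by identifier in the RefSeq table. Precision is limited by the number of arrays.

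The members, lists and naming rule were chosen with earlier results of these data known. Named were, in each comparison, the 5 largest positive and 5 largest negative values past the threshold without overlap, the 10 smallest p of the F test and a list of core genes; Dusp14, Mapk6 and Ptprf, the genes called in no group, and values and probes given beside these were added after the values were seen. Alternatives were values as deposited, scaled arrays, a running median along the probe order, other rules for missing values and probes, a replicate block, each array left out, the T cell groups alone and NODtoB6 with its sign turned.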

Additional observations from a re-analysis of the deposited data

Results flagged for a closer look

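In the congenic strain 5 genes differed between the tissues by the test of the difference itself. It took spleen T cells minus kidney, each relative to the same tissue of B6. The 5 are 9.43% of the 53 tested, against 21.0% of all features and 16.8% of the named genes. Rps6kb2 was at 2.16 on the log2 scale, with 1.32 and 1.98 in T cells and -0.67 and -0.35 in kidney. Ptpn6 was at -0.62, Mapkapk5 at -0.61 (neither of its 2 probes passed on its own), Ptpn18 at -0.51 and Dusp14 at -0.50. The last 4 were each lost with at least 1 kidney array left out, and in the values as deposited (adjusted p = 0.22, 0.33, 0.45 and 0.46).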

How the results depend on the processing

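Of 99 named values past the threshold, 28 kept their call and direction under every alternative. Values of NODtoB6 against B6 could not be among the 28, since turning NODtoB6 reverses them by construction. With the values as deposited the number of genes called was 36 in NOD.H2h4 (64.3%, against 63.6% of all features), 21 in congenic kidney (38.2%, against 32.4%) and 0 in NOD (against 1.2%). It was 8 in NODtoB6 (14.5%, against 22.8%), 17 for NOD.H2h4 minus NOD (30.4%, against 27.6%) and 1 for congenic T cells minus kidney (1.89%, against 9.73%). With these values 14 of the values named by the rule turned, 10 of them past the threshold before. They were Dusp3 (-0.15), Mapk14 (-0.32), Mapk9 (-0.73), Ptpn11 (-0.75) and Ptpn18 (-0.18) in NOD.H2h4, Map2k1 (-0.42), Mapk14 (-0.11) and Ptpn18 (-0.03) in congenic kidney, Map2k1 (-0.08) and Ptpn2 (-0.59) in B6toNOD, Map3k7 (-0.13), Mapk10 (-0.10) and Ptpn18 (-0.29) for NOD.H2h4 minus NOD, and Map2k1 (0.11) for NODtoB6 minus B6toNOD. Over all 126 called values 17 turned; the other 7 were Dusp14 (-0.33), Mapk10 (-0.31) and Ptprs (-0.32) in NOD.H2h4 and Dusp14 (-0.03), Ptpn14 (-0.26), Ptpn18 (-0.32) and Rps6ka6 (-0.21) in B6toNOD. With scaled arrays 14 genes were called in NOD and 4 for NOD.H2h4 minus NOD. With the running median they were 2 in NOD and 8 for congenic T cells minus NOD. With only probes valued on all 12 arrays, an alternative chosen after the values were seen, they were 8 in NOD and 8 for congenic T cells minus kidney, and Dusp16 in congenic T cells read 0.61. With NODtoB6 turned, 24 were called for NODtoB6 minus B6toNOD, and its values against B6 change sign by construction: Map2k1 -0.27, Map2k6 3.35, Map3k14 0.97, Map3k7 -1.69, Map4k4 -0.42, Mapk10 1.05, Mapk13 1.87, Mapkapk2 -0.92, Ptpn14 -0.36, Ptpn21 1.29 and Ptpn6 -0.33. Centring shifts account for the turned values as deposited by construction; the cause of the other changes was not tested.

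With single arrays left out, the number called ranged from 7 to 21 in NOD.H2h4 (lowest without either of its own arrays), 9 to 16 in congenic T cells, 5 to 15 in congenic kidney (lowest without either of its own), 0 to 6 in NOD (0 without either of its own, 1 to 2 without a NOD.H2h4 or congenic array), 8 to 15 in NODtoB6 (lowest without its replicate 1), 23 to 28 in B6toNOD, 1 to 11 for NOD.H2h4 minus NOD (1 without any of the 4 arrays compared, 4 without a kidney array), 6 to 16 for congenic T cells minus NOD (lowest without NOD replicate 2), 2 to 8 for congenic T cells minus kidney (2 without a kidney array, 8 without congenic T cell replicate 1), 13 to 19 for NODtoB6 minus B6toNOD and 18 to 33 for the F test. A lone array is taken to vary like the other groups.

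Equal replicate numbers did not pair the arrays (correlation of deviations -0.0357 to 0.0216 over 15 pairs of groups). With the replicate number as a block the number called was 18 in NOD.H2h4, 12 in congenic T cells, 12 in congenic kidney, 3 in NOD, 12 in NODtoB6, 23 in B6toNOD and 23 by the F test.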
